A study of Anguilla anguilla with 45 samples.

Results

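Caudal fins of 5 European eels held in water with cadmium (Cd) were compared with caudal fins of 5 unexposed laboratory eels. These 10 arrays, of 45 in the series, were chosen by their titles: the Cd fins are fish 45, 47, 48, 49 and 50, and the control fins are fish 6, 7, 8, 9 and 10. The Cd dose was 4 µg/L in the water. The labels give no length of exposure, age, sex or life stage for either group, and each fish number occurs once among the fins. Nothing in the labels says whether the eels of a group shared a tank, so p-values measure only the spread between these samples, which may be technical. Each sample's cDNA carried the dye Cy3 and was hybridised together with the same Cy5-labelled reference, a pool of 30 wild eels from Certes whose tissue is labelled as liver. The fins and the reference therefore differ in tissue on every array. The values were log2 ratios of 992 contigs, which are assembled transcript sequences that carry numbers in place of gene names. The ratio was taken as sample over reference, which is likely from the dyes but is not stated for the value table. If it runs the other way, every direction below is turned.

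Cd is a toxic metal with no known use in fish metabolism, and eels take it up from water through the gills and from food. In vertebrate cells it binds to thiol groups, displaces zinc and is held by metallothioneins, small cysteine-rich proteins whose genes are switched on by the metal. The liver and the kidney store much of it. A tail fin is built of skin, connective tissue, bone rays, vessels and nerves, and a piece of it can be taken from a living fish, which is the non-invasive approach that the study's title names. Since contigs had no gene names, levels of metallothionein and other known Cd-responsive genes could not be read here, and the fin label could not be checked against fin markers.

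Several arrays stood apart from the labels before any contrast was made. The fin array of Cd fish 45 did not resemble any other array. Its Pearson correlation with each of the other 44 arrays of the series, across contigs, lay between -0.093 and 0.067, and it correlated with the 4 other Cd fins at a mean of -0.046 and with the 5 control fins at -0.009. Without it the Cd fins correlated with each other at a mean of 0.687, and the control fins did so at 0.644. Fish 45 also had wide ratios, with an SD of 2.66 over its contigs against 1.14 to 2.14 on the other 9 arrays, and 45.6% of its log2 ratios lay beyond 2 in either direction against 6.98% to 25.99%. On 335 of the 511 contigs that all 10 arrays measured (65.6%), fish 45 was the array farthest from the rest.

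Control fish 6 stood nearer to the Cd fins than to its own group. It correlated with the Cd fins other than fish 45 at a mean of 0.791 (0.685 to 0.887) and with the other control fins at 0.592 (0.549 to 0.675). Its closest array in the whole series was Cd fish 47. These arrays also held the most values of the series, 988 in fish 47 and 987 in fish 6. Of the contigs, 131 had no value on 4 or more of the 8 remaining fin arrays. Fish 6 and fish 47 carried values for 129 and 130 of them, about the share they hold over all contigs. These 2 arrays had no part in picking the 131, and low counts on the 8 others follow from the pick. On these contigs the median absolute log2 ratio was 0.69 in fish 6 and 0.46 in fish 47, and 1.31 to 3.33 on the 8 other arrays. Cd fish 45 had a value on 108 of the 131, with a median absolute log2 ratio of 1.57, and the other 7 arrays on 22 to 73. The part of these arrays in each contrast below is given by leaving them out.

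**Figure D1:**
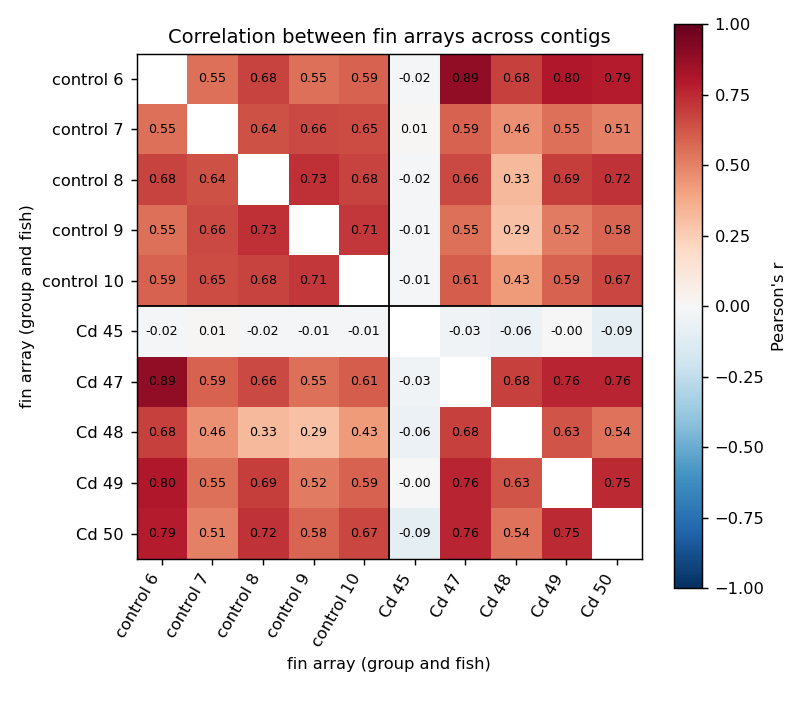
Pearson correlation of log2 ratios across contigs for each pair of the 10 fin arrays; the black lines part the control fins (first 5) from the Cd fins (last 5). The row of Cd fish 45 stays between -0.088 and 0.013, and the highest cell joins control fish 6 with Cd fish 47 at 0.887.

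On 3 summary measures the arrays of the exposed group did not differ from the controls past the threshold. The first was the correlation of an array with the averaged profile of 4 control fins, which is higher than a mean of correlations with single arrays. It was 0.549 ± 0.332 for Cd fins and 0.758 ± 0.020 for the controls (SD, n = 5 each, two-sided permutation p = 0.143, adjusted over 3 measures 0.429). The control profile was not rebuilt for each split of the arrays into groups. The permutation p-values of this measure are therefore approximate. The 5 control fins lay between 0.725 and 0.777. Of the Cd fins, fish 47, 49 and 50 lay at 0.765, 0.724 and 0.763, fish 48 at 0.505 and fish 45 at -0.012. Without fish 45 the Cd mean was 0.689 ± 0.124 (n = 4, permutation p = 0.214). Without control fish 6 as well the means were 0.695 and 0.795 (n = 4 each, permutation p = 0.057). Leaving out Cd fish 47 or 50 took the permutation p to 0.040 and 0.048, with fish 45 still in. Spearman's correlation gave 0.032, none of them adjusted. The number of contigs with a value was 890 ± 68.8 per Cd fin and 847 ± 94.7 per control fin (SD, n = 5 each, exact permutation p = 0.413). The SD of the log2 ratios over contigs was 1.77 ± 0.55 and 1.72 ± 0.27 (n = 5 each, exact permutation p = 0.897). The smallest p that the 252 splits of 5 against 5 can give is 0.0079.

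**Figure D2:**
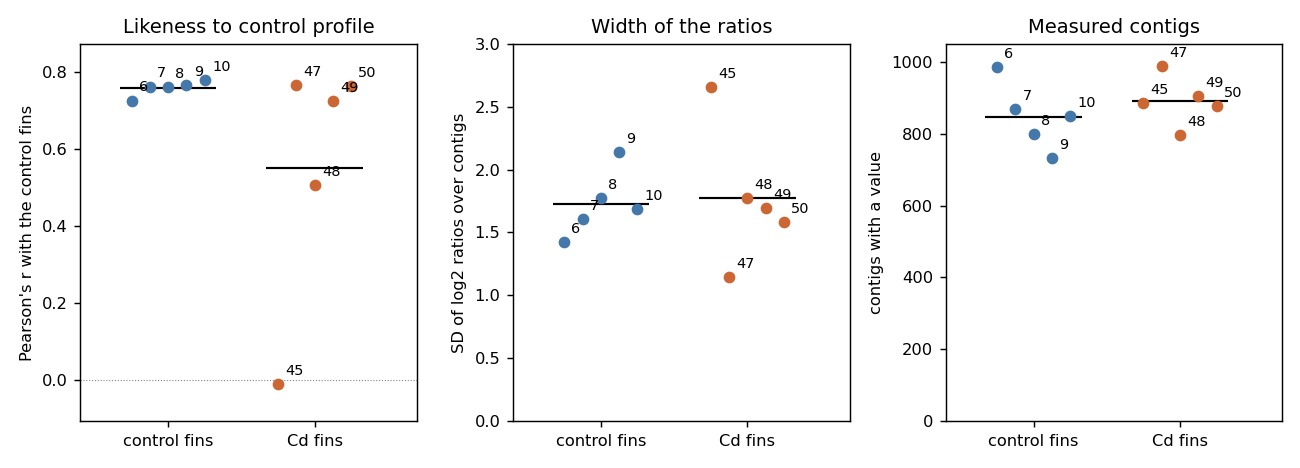
One point per fin array, labelled with its fish number, for the correlation with the control fins, the SD of its log2 ratios and its number of contigs with a value; black lines are group means. Fish 45 lies at the bottom of the first panel and at the top of the second, and fish 6 and 47 hold the most values.

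The width of the Cd group came mostly from fish 45. Over the 862 contigs with at least 3 values on each side, the median SD of a contig was 1.12 among Cd fins and 0.61 among control fins. Without fish 45 it was 0.50 over 814 contigs, and without control fish 6 it was 0.58 among control fins over 763 contigs. Among the 511 contigs measured on all 10 arrays, the medians were 1.07 in Cd fins, 0.45 in Cd fins without fish 45 and 0.51 in control fins.

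Whether a contig had a value at all gave no call, but the test could hardly have given one. Control fish 6 and Cd fish 47 held values on 987 and 988 of the 992 contigs, so a full split of the groups was barely possible. The smallest unadjusted p was 0.048 in Fisher's exact test. Of 481 contigs whose presence varied over the 10 arrays, 0 fell below an adjusted p of 0.05 in Fisher's exact test, and 9 did so before adjustment. All 9 had a value on 5 Cd fins and on at most 1 control fin, and 0 contigs showed the reverse. Without Cd fish 45, 14 of the 416 contigs whose presence then varied lay under 0.05 before adjustment in Fisher's exact test. Of these, 10 had values on all Cd fins and at most 1 control fin, and 4 the other way. Without control fish 6, 32 of 481 contigs had an unadjusted p under 0.05, and the smallest adjusted p was 0.424 (Fisher's exact test). Values on all Cd fins and at most 1 control fin were then seen on 21 contigs, and the reverse on 0. Leaving out an array with 987 values itself makes splits in that direction possible, while Cd fish 47 stays in. Of the 992 contigs, 93 had fewer than 3 values in control fins only, 24 in Cd fins only and 13 in both, so these 130 entered no test of levels.

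At the threshold, an adjusted p of 0.05 in limma, no contig told Cd fins from control fins. The count was 0 of 862 contigs (0%), and before adjustment 65 contigs had a limma p under 0.05 (7.54%). Of these, 48 were higher (5.57%) and 17 lower (1.97%) in Cd fins, and the smallest adjusted p of all was 0.192 in limma. The differences, Cd minus control on the log2 scale, had a median of -0.03 with quartiles at -0.53 and 0.62, and ran from -3.98 to 5.44. The median 95% half-width of a difference was 1.52. The interval lay wholly within 1 log2 unit of 0 for 3 contigs and within 2 log2 units for 379, and for most contigs it reached beyond 2 log2 units on at least 1 side. Control and Cd values did not overlap on 14 contigs with higher Cd values (1.62%) and on 9 with lower ones (1.04%).

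Differences beyond 2 log2 units ran mostly one way. They counted 54 contigs higher and 5 lower in Cd fins, as point estimates with no test of the split. All 54 had a control mean below 0, and 45 had a Cd mean above 0. Over all 862 contigs tested these counts were 417 and 446. Picking contigs by a large positive difference itself favours both signs. Values were sparse there, since 6 of the 54 had a value on all 10 arrays and the median contig had 7 values, against 10 over all contigs tested. Of the 511 contigs measured on all 10 arrays, 8 were higher (1.57%) and 11 lower (2.15%) in Cd fins at an unadjusted limma p under 0.05, and the excess of higher contigs was not seen there. When every array was recentred on the 65 contigs that no fin array lacked, the median difference went from -0.03 to -0.24 and the unadjusted split from 48 higher and 17 lower to 24 and 22.

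The contigs nearest to the threshold are described from their single arrays. For contig_26814 the Cd fins of fish 45, 47, 48 and 50 read 3.03, 0.01, 3.95 and 4.35, with no value for fish 49. Control fish 6, 7 and 8 read -0.04, -3.93 and -3.82, with no value for the other two. The groups do not overlap, but the 2 values nearest to each other are those of fish 47 and fish 6, which differ by under 0.1. The difference was 5.44 ± 1.35 (SE, limma adjusted p = 0.192).

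For contig_30511 the Cd fins of fish 45, 47, 49 and 50 read -0.17, -0.65, 0.31 and 2.04, and fish 48 had no value. Control fish 6, 7, 8 and 9 read -0.35, -3.25, -3.58 and -5.83. Control fish 6 falls among the Cd values and the 3 other controls lie below all of them. The Cd fins stood at 0.39 ± 1.17 and the control fins at -3.25 ± 2.25 (SD, n = 4 each). They differed by 3.64 ± 0.95 (SE, limma adjusted p = 0.192).

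The pattern was the same for contig_16903, the contig with the smallest p once fish 45 was left out. Cd fish 45, 47, 48 and 49 read 0.06, 0.87, 4.40 and 3.74, and control fish 6, 7, 9 and 10 read 0.38, -2.71, -3.58 and -5.29. Fish 6 lies between fish 45 and fish 47, and the 3 other controls lie below 0. The difference was 5.07 ± 1.31 with fish 45 and 5.81 ± 1.38 without it (SE, limma adjusted p = 0.192 and 0.268).

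**Figure D3:**
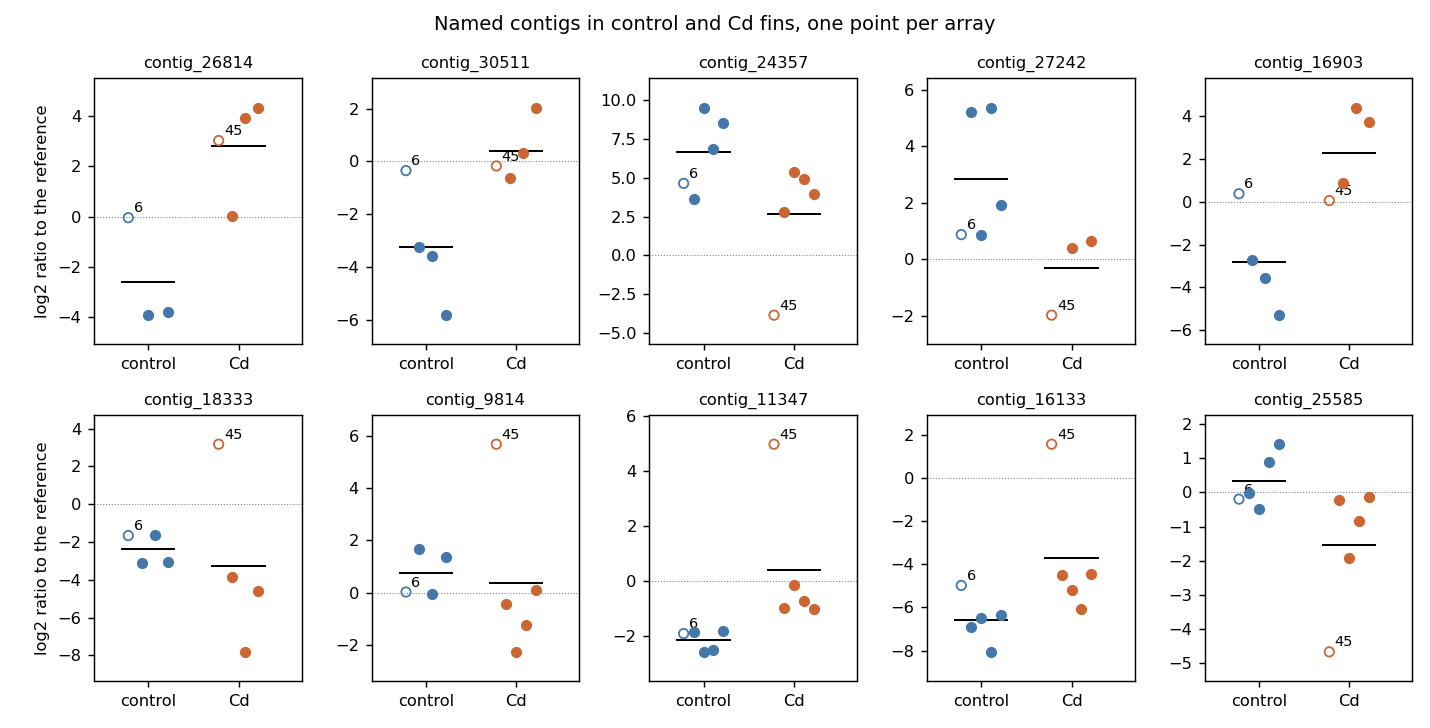
Log2 ratio to the reference of the 10 named contigs, one point per fin array with a value; lines are group means, open points are control fish 6 and Cd fish 45, and each panel has its own axis. Fish 45 lies far from the other Cd fins on contig_24357, contig_18333, contig_9814, contig_11347, contig_16133 and contig_25585. Fish 6 lies above the other controls on contig_26814, contig_30511, contig_16903 and contig_16133.

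Among contigs that were lower in Cd fins, contig_24357 had the smallest p, with a difference that was larger with fish 45 in. The Cd fins of fish 45, 47, 48, 49 and 50 read -3.84, 2.81, 5.39, 4.95 and 3.99, and control fish 6 to 10 read 4.64, 3.61, 9.53, 6.87 and 8.52. Apart from fish 45, the Cd and control values overlap. The difference was -3.98 ± 1.39 with fish 45 and -2.35 ± 1.04 without it (SE, limma adjusted p = 0.421 and 0.999). Before adjustment the limma p was 0.0095 with fish 45 and 0.035 without it.

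For contig_27242 the Cd fins of fish 45, 47 and 49 read -1.98, 0.41 and 0.64. The 5 control fins read 0.88, 5.24, 0.88, 5.38 and 1.91 in order of fish number. The groups do not overlap, and fish 6 and 8 lie close above the Cd values. The difference was -3.16 ± 1.12 (SE, limma adjusted p = 0.421), and without fish 45 the contig had 2 Cd values and was not tested.

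Of the contigs measured on all 10 arrays, contig_11347 was the one with the smallest p. Cd fish 45, 47, 48, 49 and 50 read 4.98, -0.99, -0.15, -0.73 and -1.02, and control fish 6 to 10 read -1.91, -1.85, -2.57, -2.51 and -1.82. Every Cd fin lies above every control fin, with fish 45 far above the rest and with fish 6 in the middle of its own group. The difference was 2.55 ± 0.75 (SE, limma adjusted p = 0.268). Without fish 45 the Cd fins stood at -0.72 ± 0.41 (SD, n = 4) and the control fins at -2.13 ± 0.38 (n = 5), and they differed by 1.41 ± 0.51 (SE, limma adjusted p = 0.757).

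On contig_16133 all 10 fins but that of fish 45 read far below the reference. Cd fish 47 to 50 read -4.51, -5.21, -6.06 and -4.45, fish 45 read 1.55, and the controls ran from -8.05 to -4.98, the last being fish 6. The groups overlap, and the difference fell from 2.83 ± 1.0 with fish 45 to 1.5 ± 0.78 without it (SE, limma adjusted p = 0.421 and 0.999). On contig_25585 fish 45 read -4.67, the other Cd fins ran from -1.92 to -0.13 and the controls from -0.48 to 1.41. The difference there was -1.87 ± 0.80 with fish 45 and -1.09 ± 0.73 without it (SE, limma adjusted p = 0.622 and 0.999).

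Leaving out fish 45 did not bring any contig past the threshold. In limma the count was 0 of 814 (0%), and before adjustment 32 contigs lay under 0.05 (3.93%), 23 higher (2.83%) and 9 lower (1.11%). Of the 65 contigs with an unadjusted p under 0.05 with fish 45, 50 could still be tested and 22 stayed under it, which is 33.8% of the 65 and 68.8% of the 32. The sign of the difference was the same with and without fish 45 on 609 of the 814 contigs. The median half-width was 1.40, and 487 intervals lay within 2 log2 units of 0. Without fish 45 the groups did not overlap on 13 contigs with higher Cd values (1.6%) and on 16 with lower ones (1.97%).

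**Figure D4:**
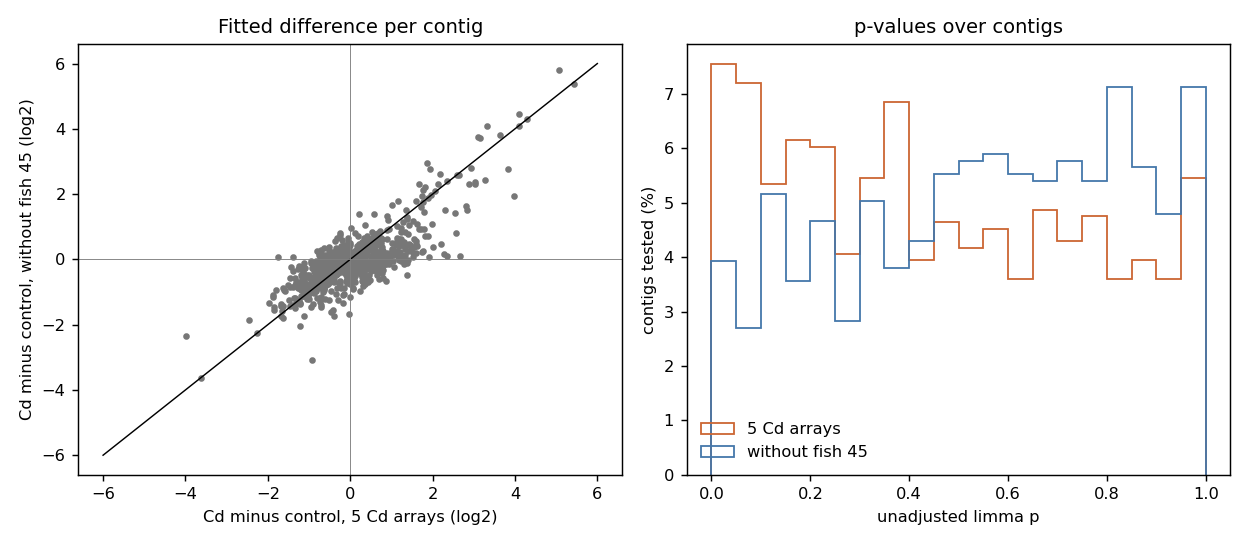
Left, the fitted Cd minus control difference (log2) of each of the 814 contigs tested both ways, with all 5 Cd fins on the x axis and without fish 45 on the y axis; the line marks equal values. Right, the share of tested contigs in each bin of unadjusted limma p, where the first bin holds 7.54% with fish 45 and 3.93% without it.

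A further pair of contigs shows how the size of a difference could hang on fish 45, with the direction the same either way. On contig_18333 the Cd fins of fish 47, 49 and 50 read -3.87, -7.81 and -4.60 and fish 45 read 3.17, while control fish 6, 8, 9 and 10 read -1.66, -3.11, -1.61 and -3.07. Without fish 45 all Cd values lie below all control values, a difference of -3.07 ± 0.96 (SE, limma adjusted p = 0.548). With it the difference was -0.92 ± 1.34 (SE, limma adjusted p = 0.873). On contig_9814 the difference was -1.72 ± 0.59 without fish 45 and -0.39 ± 1.07 with it (SE, limma adjusted p = 0.757 and 0.944), the Cd fins of fish 47 to 50 running from -2.28 to 0.09 and the controls from -0.06 to 1.67.

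Calls appeared only when control fish 6 was left out, alone or with other arrays. Without it 2 of 763 contigs passed in limma (0.262%), both higher in Cd fins, and 65 had an unadjusted p under 0.05 (8.52%). They were contig_30511, at 4.60 ± 0.91 (SE, limma adjusted p = 0.022), and contig_16903, at 6.13 ± 1.31 (limma adjusted p = 0.039), each on 4 Cd and 3 control fins. The same 2 contigs passed when fish 45 was left out too, among 729 tested (0.274%, with 35 under an unadjusted p of 0.05, 4.8%), at 4.79 ± 0.96 and 6.86 ± 1.35 (SE, limma adjusted p = 0.016 for each, 3 fins on each side). When fish 6 and Cd fish 47 were both left out, 2 contigs passed of 725. With fish 45 also out, 0 of 658 passed and 18 had an unadjusted p under 0.05 in limma. In that last fit contig_30511 and contig_16903 kept 2 Cd values each, under the minimum of 3. They were not tested there, so the 0 says nothing about them. Every array was left out in turn, fish 6 among them. Fish 6 was the control nearest to the Cd fins by correlation, and on both contigs it read among the Cd values. Leaving it out therefore widens these differences by itself, and the 2 calls are not independent of that likeness. Values of fin groups not given Cd on these 2 contigs are given further below. The choice to leave out fish 47 was made after the correlations had been seen.

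Apart from Cd fish 45, the fins kept the broad pattern that sets Certes fins apart from the reference. It was read from the wild Certes fins alone, as 29 contigs with a Certes mean below -3 and 15 with one above 3. Each array was averaged over the contigs it measured, so the arrays do not cover the same ones. For the 29 contigs the control fins averaged -4.40 ± 0.39 and the Cd fins -3.08 ± 2.26 (SD, n = 5 each). Fish 45 averaged 0.67 over 28 contigs and fish 48 -2.71 over 12, and without fish 45 the Cd fins averaged -4.02 ± 0.98 (n = 4). For the 15 contigs the control fins averaged 3.78 ± 0.42 and the Cd fins 2.91 ± 1.65 (SD, n = 5 each), with fish 45 at 0.23 and a Cd mean of 3.59 ± 0.80 without it (n = 4). The means of the 4 other Cd fins had the sign of the control fins at both ends. In fish 45 the contigs went both ways, and 42.9% of those with a value lay on the Certes side of 0 at either end.

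Cd was also given to eels whose livers were arrayed, at the same dose and with the same 10 fish numbers, although no label ties a number to 1 animal, and the difference between the Cd effects of the tissues was tested itself. Of 730 contigs with at least 3 values in all 4 groups, 0 passed in limma (0%), and 64 had an unadjusted p under 0.05 (8.77%), of which 17 (2.33%) had a higher and 47 (6.44%) a lower Cd effect in fin than in liver. Without the fin array of fish 45, 0 of 714 passed (0%) and 80 had an unadjusted p under 0.05 in limma (11.2%), 21 (2.94%) with a higher and 59 (8.26%) with a lower effect in fin. The smallest adjusted p was 0.295 with fish 45 and 0.096 without it.

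That smallest value belonged to contig_13165. Its fin values in Cd fish 47 to 50 were -0.46, -1.20, -1.02 and -0.25, and in control fish 6 to 10 they were -0.27, 0.66, 0.74, 2.10 and 0.45. The Cd livers ran from -0.30 to 0.80 and the control livers from -1.89 to 0.14. Cd fins thus lay mostly below control fins while Cd livers lay mostly above control livers. The tissue difference was -2.95 ± 0.61 without the fin of fish 45, which read 3.04, and -2.20 ± 0.92 with it (SE, limma adjusted p = 0.096 and 0.512). Without fin control fish 6 or without liver control fish 10, and without the fin of fish 45, it passed at -3.20 and -3.29 (limma adjusted p = 0.030 and 0.0069). No other of the 19 single omissions gave a call. Fish 6 read -0.27, the lowest control fin, and liver fish 10 read 0.14, the highest control liver. Each was the control nearest to the Cd values of its tissue, so leaving it out widens the difference by itself.

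On contig_18304 fin and liver values also ran apart. The Cd fins ran from -4.03 to -1.6 and the control fins from -2.29 to -0.76, which overlap. The Cd livers lay at 0.06 to 0.74, all above the control livers at -0.79 to -0.10. The difference between the effects was -2.0 ± 0.54 with fish 45 and -1.65 ± 0.43 without it (SE, limma adjusted p = 0.295 and 0.185). In contig_18763 the Cd fins of fish 45, 47 and 48 read 3.69, 0.09 and 1.52 against -4.47 to 0.08 in control fins, and the Cd livers of fish 45, 48 and 49 ran from -3.57 to 0.81 against 2.15 to 8.69 in control livers, a difference between effects of 9.03 ± 2.15 (SE, limma adjusted p = 0.295). Without fish 45 it had 2 Cd fin values and was not tested, while contig_11347 was then the contig with the smallest p in that direction, at 1.72 ± 0.47 (limma adjusted p = 0.185).

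Cd fins were also set directly against the fins of eels fed polychlorinated biphenyls (PCBs). The low dose was 50 ng/g and the high dose 300 ng/g, with 5 arrays each. The differences use no control array, but the limma p-values take their spread from all 35 fin arrays, controls included. PCBs are persistent organic pollutants, and the labels write the dose per g PS without explaining it. Cd fins differed from the fins of the low dose in 47 of 881 contigs (5.33%), 23 higher and 24 lower in Cd fins, in limma; 157 lay under 0.05 before adjustment (17.8%). The fit of only the compared arrays gave 9. Among the 47, the control mean had the sign of the Cd mean on 22 of the 23 higher and 22 of the 24 lower contigs. The low-dose mean was nearer to 0 than the Cd mean on 19 and 20 of them. Neither was counted over all contigs tested. The low-dose group stood apart as a whole. Each Cd and control fin correlated with its 5 fins at a mean between -0.042 and 0.090. For the 29 and 15 contigs chosen by Certes levels the low-dose fins averaged -0.26 and 0.40. The wild Gironde fins stood apart likewise, at mean correlations between -0.063 and 0.087 and averages of 0.41 and -0.39. On the same contigs the control livers averaged -0.61 and 0.23 and the Cd livers -0.37 and 0.47, near the low-dose fins. The part of the low-dose group in the count was not tested. The sizes ran from 1.67 to 7.12 log2 units. Low-dose fish 26 was in 7 of the 9 array pairs of the series that correlated below -0.3, among 990 pairs, with a lowest value of -0.530 against a high-dose fin. Since the labels state the same dyes for every array, its sign was kept, and 39 contigs passed without it. Without fish 45 the count was 71, without Cd fish 48 it was 27, and without Cd fish 49 it was 24. The 2 contigs called against controls without fish 6 did not pass here. Cd minus low dose was 0.08 ± 0.91 on contig_30511 and 1.25 ± 1.25 on contig_16903 (SE, limma adjusted p = 0.985 and 0.672). Gironde fins averaged 0.10 and 0.28 on them, and control fins -3.25 and -2.80. High-dose fins averaged -2.57 and -1.33, and Garonne fins -6.46 and -4.57 (n = 2).

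The contig with the smallest p in that contrast was contig_20173. Cd fish 47, 49 and 50 read -5.75, -8.32 and -6.75, and the 5 low-dose fins read 0.10, 1.24, -1.66, 1.61 and -0.40. The groups lie over 4 log2 units apart, and control fish 6, 8 and 9, at -7.08, -8.09 and -8.34, lie with the Cd fins. The difference was -7.12 ± 0.80 (SE, limma adjusted p = 5.4e-05). In the other direction, contig_16181 read 3.54, 4.22, 4.59, 4.22 and 2.37 in Cd fish 45 to 50 and -0.39, 0.30, 0.66 and 0.75 in the 4 low-dose fins with a value, while control fins ran from 3.47 to 4.58. Here fish 45 stood with the other Cd fins, and the difference was 3.46 ± 0.58 (SE, limma adjusted p = 0.00049). On both contigs the livers lay nearer to the low-dose fins than to the Cd fins. Control and Cd livers averaged 1.13 and 0.91 on contig_20173, and 0.52 and 0.82 on contig_16181. What sets the low-dose fins apart was not tested.

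**Figure D5:**
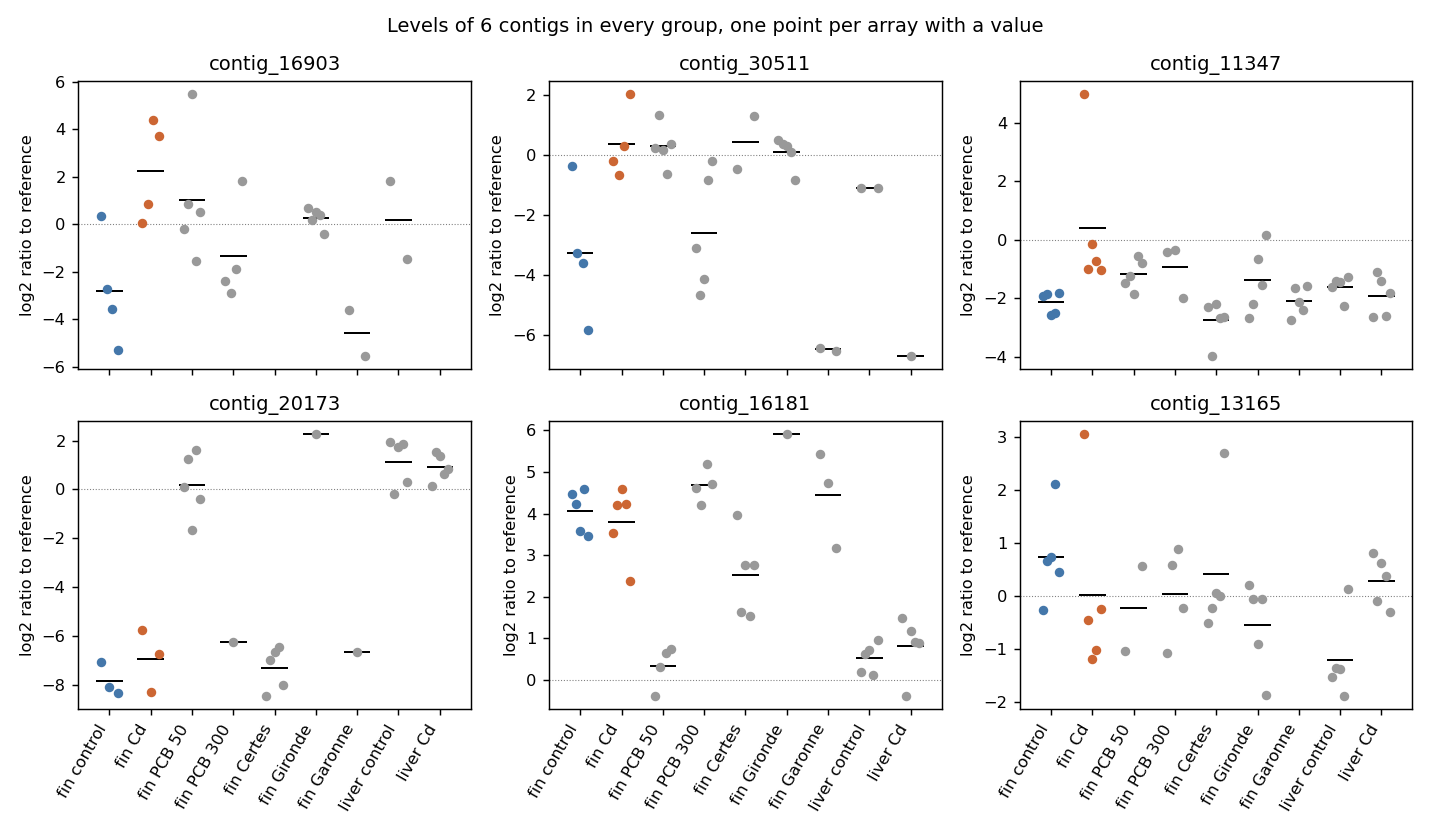
Log2 ratio to the reference of 6 contigs in every group of the series, one point per array with a value and a line at the group mean, with control fins in blue, Cd fins in orange and all other groups in grey; each panel has its own axis. On contig_20173 and contig_16181 Cd and control fins lie together. The fins of the 50 ng/g dose lie apart from both there, at levels that overlap those of the livers.

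Against the high dose, 4 of 764 contigs passed in limma (0.524%), all higher in Cd fins, and 103 had an unadjusted p under 0.05 (13.5%). On contig_15714 the Cd fins of fish 45, 47 and 49 read 2.89, 0.79 and 2.71 and the high-dose fins of fish 31, 33 and 34 read -2.86, -5.22 and -0.99, which do not overlap. The difference was 5.15 ± 0.99 (SE, limma adjusted p = 0.034), and contig_15714 had 2 control values and no Cd against control test. Recentring, scaling, quantile normalization and fitting only the compared arrays each gave 0 calls. Requiring all 5 values also gave 0, but the 4 called contigs had 3 or 4 values in each group and could not enter it. The count also moved with single arrays: 0 passed without Cd fish 45 or 47 or without high-dose fish 31 or 33. Without Cd fish 48 or high-dose fish 32, 1 passed, and 37 passed without high-dose fish 35. Part of this comes from the minimum of 3 values. With 3 values in each group, contig_15714 was not tested once any of its own arrays was left out. In the 4 single omissions that kept it, it passed (limma adjusted p = 0.0089 to 0.036). Of the contigs lower in Cd fins, contig_20490 had the smallest p, with Cd fins at -3.24 in fish 45 and -0.20 to 0.61 in the others against 0.90 to 5.76 in 3 high-dose fins, a difference of -3.70 ± 0.98 (SE, limma adjusted p = 0.121).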

How the data were processed

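The values were the authors' log2 ratios, deposited as a table of processed values for 45 arrays; every array has a median of 0, so each was centred before deposit. What was done for background, spot filtering and averaging before that is not given in the sources used here. Left out was a table of 180 scanner value columns, numbered without sample names. No contig matched the gene table used here. Missing values (12.4% on the 10 arrays) stayed missing.

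All 35 fin arrays (with both PCB doses and the wild Certes, Gironde and Garonne eels) entered 1 fit with a mean per group (lmFit and eBayes, limma 3.58.1, R 4.3.3); the tissue contrast used the 20 control and Cd arrays of fin and liver. A contig needed 3 values in each compared group. The threshold was 0.05 for two-sided p-values, adjusted by Benjamini-Hochberg over all contigs of a comparison. The fit was tested on simulated data. Array measures used permutation tests over all splits of the arrays, and presence Fisher's exact test. For the correlation with the control fins the finished scores were permuted, so its p-values are approximate. The number of arrays limits the precision, and depth has no meaning here. Named contigs are those with the smallest p in each direction, 2 for Cd against control (all arrays, without fish 45, and with values on all 10 arrays) and 1 for each other contrast. Alternatives were other minimums of values, recentring, scaling, quantile normalization, array weights, robust moderation, smaller sets of arrays and leaving out each array. The comparison, its contigs and these tests were chosen with earlier results of these data known.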

Additional observations from a re-analysis of the deposited data

Results flagged for a closer look

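Of 32 groups of values tested for a lone array, 5 held one that lay far from the rest by Dixon's ratio, and in each it was Cd fish 45 among the 5 Cd fins; chance marks about 1 in 20 groups. Fish 45 read -3.84 on contig_24357 (the other Cd fins 2.81 to 5.39), 4.98 on contig_11347 (-1.02 to -0.15), 1.55 on contig_16133 (-6.06 to -4.45), 3.04 on contig_13165 (-1.20 to -0.25) and -3.24 on contig_20490 (-0.20 to 0.61). The 5 contigs are among those named by their p, so they are not a sample of all contigs. All but contig_13165 were named in a contrast that the fin of fish 45 enters. The tissue contrast without that fin named contig_13165.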

How the results depend on the processing

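Cd against control gave 0 calls in each single change of setting except without control fish 6 (range over single arrays left out 0 to 2, with and without fish 45); leaving out fish 6 and Cd fish 47 together, added after seeing the data, gave 2. The tissue contrast gave 0 calls without any single array with fish 45 in, 0 to 1 with fish 45 out, and 1 with array weights either way. Against the low PCB dose single omissions gave 24 to 71, quantile normalization 74, array weights 76, all 5 values 31 and only the compared arrays 9. Against the high dose single omissions gave 0 to 37, array weights 36 and at least 4 values 1. Recentring, scaling, quantile normalization, all 5 values, only the compared arrays and the smaller fit gave 0. None of the contigs called there had all 5 values in each group, so that setting could not keep them. The Cd minus control difference in correlation with the control fins was -0.21, from -0.263 to -0.069 without single arrays (approximate permutation p = 0.040 to 0.516). By Spearman it was -0.242 (approximate permutation p = 0.032). The Cd minus control difference in SD was 0.05 and changed sign without control fish 6 (-0.03) or Cd fish 45 (-0.18). Its highest value without a single array was 0.20. The cause was not tested in any of these. No named contig changed sign in the contrast that named it. Fin and liver share fish numbers, but same-numbered arrays did not deviate together (correlations -0.19 to 0.17); with the replicate block the tissue contrast gave 0 calls with and 0 without fish 45. The number of arrays and the missing values limit every contrast.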
